A study of Homo sapiens with 2 samples.

Results

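Androgen-induced genes other than the kallikreins were described in C4-2B MDVR cells, a human prostate cancer line of the LNCaP lineage selected for growth in the antiandrogen enzalutamide. The set was a list of 39 symbols known as androgen-induced, taken by name, and all 39 were among the 25268 symbols of the deposited tables. The control group was a single library (1) of cells that received DMSO, the vehicle, and the treated group was 1 library of cells that received Indocin at 20 µM, each over 3 days. Indocin, or indomethacin, inhibits the cyclooxygenases and also AKR1C3, an enzyme that makes androgens. Both groups carried the same resistant background and were kept in medium with 10% serum and 20 µM enzalutamide, so neither is an untreated or androgen-free control. A line selected in drug is 1 model of resistance. With 1 library per group there was no replicate spread, and no test, p-value or error can be given for any difference below.

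Androgen binds its receptor in the cytoplasm, where HSP90 and its cochaperones hold the unliganded protein. The bound receptor moves to the nucleus and sits on androgen response elements, mostly in enhancers, from which it raises transcription of its target genes. Beside the kallikreins, which are secreted proteases, these targets include elongation and transcription factors, ion channels and vesicle proteins, signalling scaffolds and kinases, and metabolic enzymes. Several feed back on the receptor or on growth factor signalling. Enzalutamide blocks the receptor, and many of the genes are read as a measure of how active the receptor remains.

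The values were FPKM, fragment numbers normalised for transcript length and sequencing depth, so levels can be compared between genes. The total was 617510 FPKM with DMSO and 583096 FPKM with Indocin, and the number of reads was not recovered. Of the luminal epithelial markers 10 of 10 were measured (KRT8, KRT18 and EPCAM among them), with summed levels of 1707 FPKM with DMSO and 1507 FPKM with Indocin. No basal marker (0 of 5), neuroendocrine marker (0 of 8) or endothelial marker (0 of 5) reached a mean of 1 FPKM. The summed levels of these 3 lists were 1.31 and 1.13, 0.816 and 0.863, and 0.413 and 0.658 FPKM. Among fibroblast and muscle markers only COL1A1 did (1 of 8, summed level 5.69 and 6.10 FPKM), with COL1A2, COL3A1 and DCN listed at 0 in both libraries. Among leukocyte markers only CD68 did (1 of 6, summed level 7.22 and 6.39 FPKM), with CD3E listed at 0 in both.

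As a group the androgen-induced genes were slightly lower in the Indocin library. Their 39 values summed to 2320 FPKM with DMSO and 2015 FPKM with Indocin, or 86.8% of the DMSO level, where the sum over all tested genes stood at 94.5%. NDRG1, FKBP5 and SORD alone made up 58.2% of the net difference of -305.6 FPKM. The measure of difference was the log2 ratio, log2((Indocin FPKM + 1)/(DMSO FPKM + 1)), for genes that averaged 1 FPKM or more over the 2 libraries, and 36 of the 39 entered. The added 1 FPKM makes folds of low genes look smaller than they are. MAF, a basic leucine zipper factor, was listed at 0.0473 and 0.0495 FPKM in the DMSO and Indocin libraries, the phosphoinositide phosphatase INPP4B at 0.356 and 0.338 FPKM, and the type I receptor BMPR1B at 0.0169 and 0.0275 FPKM. These 3 were too low to compare.

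Of the 36 genes 28 had a ratio below 0 and 8 above, where 55.2% of all 11965 tested genes lay below 0. The median was -0.15 (quartiles -0.37 and -0.024), against -0.025 (quartiles -0.15 and 0.11) over all tested genes. Only EAF2 was at least 1.5-fold lower (0.744% of tested genes were), and none was as much higher (2.19% of tested genes were). At 1.2-fold, a threshold added after the values were seen, 11 of 36 were lower, or 30.6%, where 11.7% of tested genes were. None was as much higher, where 9.9% of tested genes were. Among the 28 genes averaging 10 FPKM or more, 21 were below 0 (63.9% of tested genes at that level were). Of these 28, 8 passed 1.2-fold on the lower side and 0 on the higher, where 13.4% and 6.19% of tested genes at that level did, and the medians were -0.15 and -0.058. The genes were chosen with earlier results of these data known, so these counts describe them and do not set them apart from chance.

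**Figure D1:**
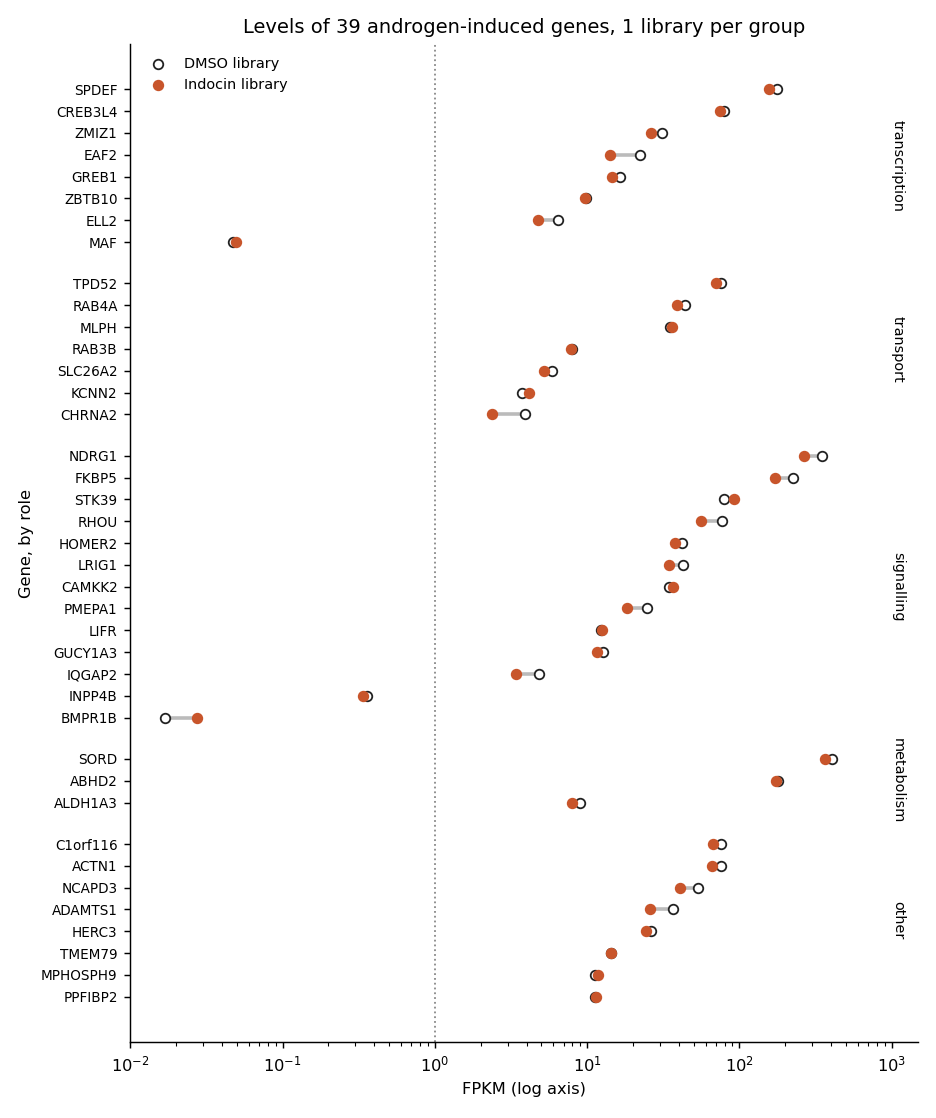
FPKM on a log axis of all 39 genes in the DMSO library (open points) and the Indocin library (filled points), ordered by role and level. The dotted line marks 1 FPKM. SORD is highest at 403 FPKM in the DMSO library, MAF, INPP4B and BMPR1B lie below 1 FPKM, and most filled points sit to the left of the open ones.

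**Figure D2:**
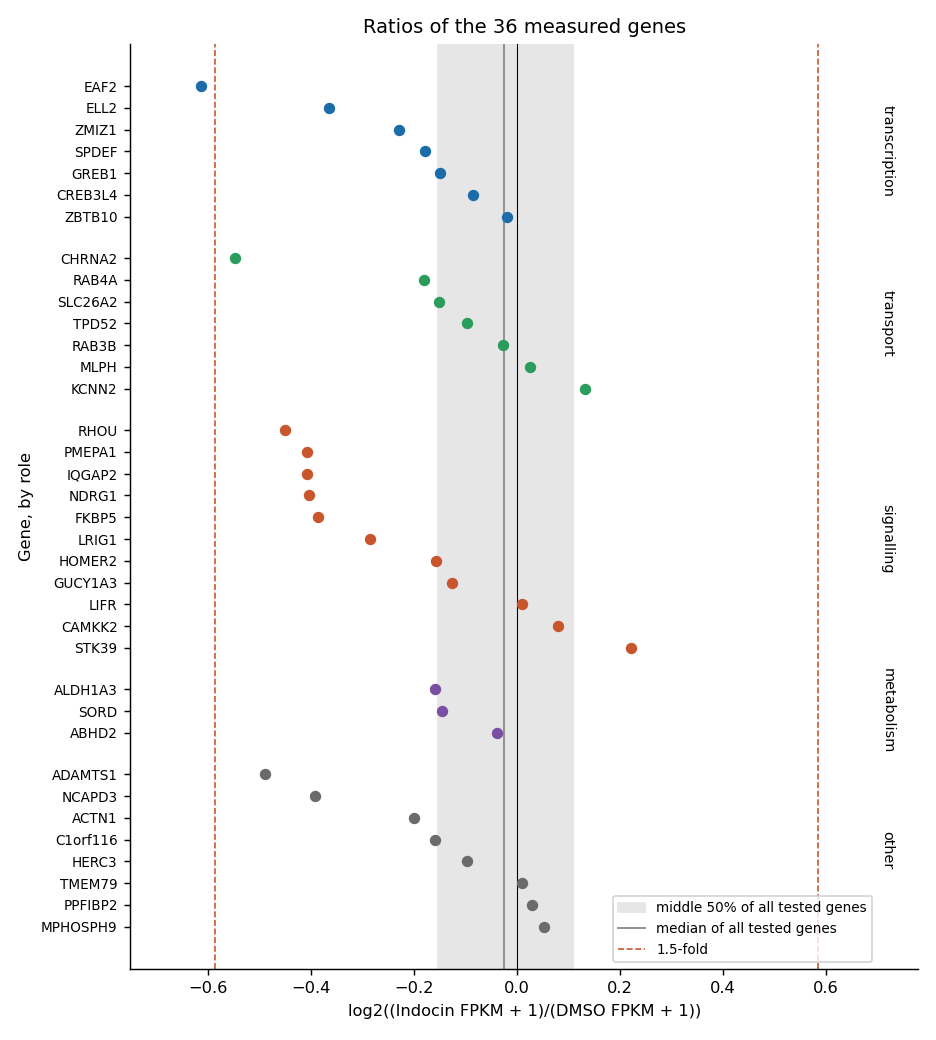
Log2 ratios (Indocin over DMSO, FPKM + 1) of the 36 measured genes by role, with the middle 50% of all tested genes in grey and 1.5-fold as dashed lines. EAF2 alone lies beyond the dashed line. All 7 genes of transcription and all 3 of metabolism lie below 0, as do 55.2% of all tested genes. With equal upper quartiles or sums, which are not drawn here, 6 and 2 of these genes do.

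Genes of transcription came first among the roles by their lowest member. All 7 measured were below 0, where 55.2% of all tested genes were, and their median was -0.18. When the libraries were scaled to equal upper quartiles or equal sums, 6 were below 0, where 41.2% and 39.6% of all tested genes were. EAF2, which binds the elongation factor ELL and acts with it on RNA polymerase II, stood at 22.3 FPKM with DMSO and 14.2 FPKM with Indocin, 63.9% of the DMSO level (log2 ratio -0.61). Only 0.635% of tested genes had a lower ratio. ELL2, a subunit of the super elongation complex, stood at 6.46 and 4.79 FPKM (-0.37). The pair EAF2 and ELL2, which belong to the same elongation machinery, were thus the lowest ratios of this role. ZMIZ1, a PIAS-like coactivator of the androgen receptor, was listed at 30.8 FPKM and then 26.2 FPKM (-0.23). SPDEF, the prostate-derived ETS factor of luminal cells, had the highest level of the role, at 176.6 FPKM with DMSO and 156 FPKM with Indocin (-0.18). GREB1, a chromatin-bound cofactor of steroid receptors, differed by about as little, at 16.4 and 14.7 FPKM (-0.15). CREB3L4, a membrane-bound factor of the endoplasmic reticulum, stood at 79.3 and 74.8 FPKM (-0.08), and the zinc finger protein ZBTB10 at 9.80 and 9.66 FPKM (-0.02). ZBTB10 is 1 of the 3 genes whose sign changes when the libraries are rescaled, so its direction is not given.

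The relatives of these factors did not all lie on the same side. EAF1, the paralog of EAF2, stood at 29.2 FPKM with DMSO and 32.3 FPKM with Indocin (0.14), above 0 under each scaling, while EAF2 was below 0 under each. ELL (-0.26) and ELL3 (-0.19), paralogs of ELL2, were lower, and AFF4, the scaffold of the super elongation complex, was at 0.10. CDK9, its kinase, was at 0.03. PIAS1, a SUMO ligase related to ZMIZ1, stood at 23.9 and 17.9 FPKM (-0.40), and ZMIZ2 at 0.02.

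Genes of transport and vesicle traffic were closer to the median of all genes, at a median of -0.097. Of 7 measured, 5 were below 0, where 55.2% of all tested genes were. Once upper quartiles or sums were made equal RAB3B changed sign and 4 were, against 41.2% and 39.6% of all tested genes. CHRNA2, a nicotinic acetylcholine receptor subunit and ligand-gated channel, was the exception. It stood at 3.92 FPKM with DMSO and 2.37 FPKM with Indocin (-0.55), and 1.12% of tested genes were lower. In FPKM alone CHRNA2 was at 60.4% of its DMSO level, a smaller share than for EAF2. At a few FPKM the fragments behind such a value are few and their number is unknown. RAB4A, a GTPase of endosome recycling, stood at 44.0 and 38.7 FPKM (-0.18), and the sulfate transporter SLC26A2 at 5.85 and 5.17 FPKM (-0.15). TPD52, a vesicle trafficking protein often amplified in prostate cancer, differed less, at 75.3 and 70.4 FPKM (-0.10). Its partner MAL2, a protein of apical transport, went the other way at 56.7 and 85.5 FPKM (0.58). RAB3B, a GTPase of secretory vesicles, was nearly level at 7.95 and 7.79 FPKM (-0.03), while its paralog RAB3A stood at 30.9 and 21.3 FPKM (-0.51) and RAB3D was at -0.04, with a sign that depended on the scaling. MLPH, melanophilin, which ties RAB27A to myosin V, was listed at 35.2 and 35.9 FPKM (0.03). KCNN2, a calcium-activated potassium channel, had the highest ratio of the role, at 3.72 and 4.18 FPKM (0.13).

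Genes of signalling had the lowest median of the roles, -0.28 over 11 measured. Of these 8 were below 0 and 6 at least 1.2-fold lower, where 55.2% and 11.7% of all tested genes were. Under either rescaling 5 were 1.2-fold lower and 1 as much higher. With equal upper quartiles 7.0% and 14.8% of all tested genes were. With no filter on low values MAF, INPP4B and BMPR1B entered, and the median of signalling was -0.156 and that of transcription -0.164, so the order of these roles turned. RHOU, an atypical GTPase related to CDC42, stood at 76.5 FPKM with DMSO and 55.8 FPKM with Indocin (-0.45). Its paralog RHOV was at -0.23 and CDC42 itself at -0.05, the last with a sign that depended on the scaling. PMEPA1, a membrane adaptor that damps TGF-beta signalling and recruits ligases of the NEDD4 family, stood at 24.6 and 18.3 FPKM (-0.41). NEDD4 was at 2.21 and 3.41 FPKM (0.45), on the other side of 0, and the receptor TGFBR1 (0.14), SMAD2 (0.09), SMAD4 (0.02) and SMAD3 (-0.07) were between. IQGAP2, a scaffold that binds CDC42 and RAC1, had a nearly equal ratio from a lower level, at 4.85 and 3.41 FPKM (-0.41), and its paralogs IQGAP1 and IQGAP3 were at -0.02 and 0.11, the former with a sign that depended on the scaling.

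NDRG1 and FKBP5 carried the largest differences in FPKM. NDRG1, a stress- and differentiation-linked protein, stood at 351.5 FPKM with DMSO and 265.5 FPKM with Indocin, 75.6% of the DMSO level (-0.40). FKBP5, an HSP90 cochaperone of steroid receptors and a much used androgen target, stood at 225.3 and 172.1 FPKM, or 76.4% (-0.39). The genes of the chaperone complex in which FKBP5 works lay on the same side. FKBP4, its paralog, stood at 272.2 and 210.3 FPKM (-0.37), HSP90AA1 at -0.32 and HSP90AB1 at -0.17. All 3 were below 0 under each scaling, where 63.9% of tested genes averaging 10 FPKM or more were as deposited.

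The remaining signalling genes were nearer to 0 or above it. LRIG1, which restrains ERBB receptors, stood at 42.5 FPKM with DMSO and 34.7 FPKM with Indocin (-0.28), and its paralogs LRIG3 (-0.27) and LRIG2 (0.15) lay on either side of 0. Of the ERBB receptors, ERBB2 (0.18) and ERBB3 (0.17) were above 0 and EGFR was at -0.07, with a sign that depended on the scaling. HOMER2, a synaptic-type scaffold, was at 42.2 and 37.7 FPKM (-0.16), with HOMER1 (-0.20) and HOMER3 (-0.18) close to it. GUCY1A3, the alpha subunit of soluble guanylate cyclase, was at 12.7 and 11.5 FPKM (-0.13), and its partner subunit GUCY1B3 at -0.10. LIFR, the receptor of leukemia inhibitory factor, was level at 12.3 and 12.4 FPKM (0.01). CAMKK2, the kinase that activates AMPK and a well known androgen target, stood at 34.7 and 36.7 FPKM (0.08), above 0 under each scaling. Its paralog CAMKK1 was at 11.7 and 8.77 FPKM (-0.38), and the AMPK catalytic subunits it acts on at 0.20 (PRKAA1) and -0.08 (PRKAA2). STK39, a kinase below the WNK kinases that controls cation-chloride cotransport, had the highest ratio of the 36 genes, at 78.8 and 92.1 FPKM (0.22), while 87.0% of tested genes lay below it. Its relative OXSR1 was at -0.08 and WNK1 at 0.01.

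The stretches just before the transcript starts of these genes were searched for the letters of the androgen receptor's motif, to show what sequence lies there in members that differed between the libraries. Starts came from RefSeq (GRCh38.p14), matched by symbol, and are not tied to the build of the expression files. Of the 39 genes 30 matched, with 62 starts. ELL2, ZBTB10, GREB1, ZMIZ1, CHRNA2, TPD52, NDRG1, SORD and ADAMTS1 did not match. The full androgen response element, in which 2 inverted copies of AGAACA stand 3 bases apart, was in 0 of the 62 windows of 250 bases, and in 1 of 35116 windows of that length over all genes. The hexamer AGAACA alone, on either strand, was in 7 of the 62 (11.3%), against 12.4% of all windows. The hexamer is an arm of the full element, so a full match would also count here. A match is a description of letters and not a binding site, and its absence says only that these letters are not in the window. The 3 genes with the largest ratios in size that held the hexamer were PMEPA1, IQGAP2 and STK39. Capitals mark the hexamer, read as TGTTCT where it lies on the other strand. PMEPA1 (chr20:57710578-57710827, minus strand, its second listed start) and IQGAP2 (chr5:76547159-76547408, plus strand, its second listed start) are shown in full. STK39 (chr2:168247690-168247719, minus strand) is shown as 30 bases around the match, since GENCODE release 29 also lists a transcript that starts upstream of it. The first listed starts of PMEPA1 and IQGAP2 too lie upstream of the windows shown. The windows before those first starts held no hexamer.
PMEPA1: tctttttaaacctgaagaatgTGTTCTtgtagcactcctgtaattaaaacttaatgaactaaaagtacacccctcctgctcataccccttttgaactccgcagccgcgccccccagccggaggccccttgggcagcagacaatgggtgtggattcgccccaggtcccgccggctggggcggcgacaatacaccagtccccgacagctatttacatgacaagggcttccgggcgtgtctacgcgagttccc
IQGAP2: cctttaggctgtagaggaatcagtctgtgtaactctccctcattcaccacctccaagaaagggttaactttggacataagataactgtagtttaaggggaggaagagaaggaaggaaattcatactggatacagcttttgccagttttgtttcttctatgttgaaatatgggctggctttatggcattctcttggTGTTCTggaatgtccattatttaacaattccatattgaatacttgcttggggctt
STK39: tcgccgaggcggAGAACAgcgcgcgctagg
PMEPA1 and IQGAP2 had nearly equal ratios (-0.41 each) and STK39 the opposite sign (0.22). The hexamer also lay before a start of ACTN1 (-0.20), MLPH (0.03), LIFR (0.01) and PPFIBP2 (0.03). A link between the hexamer and the ratios was not tested.

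Metabolic enzymes were few and differed little. SORD, which oxidises sorbitol to fructose, had the highest level of all 39 genes, at 403 FPKM with DMSO and 364.3 FPKM with Indocin (-0.15). A nearly identical pseudogene of SORD exists, so its value may hold reads of that copy. The upstream enzyme of the same pathway, AKR1B1, was listed at only 0.0589 and 0.0791 FPKM. ALDH1A3, which makes retinoic acid, stood at 8.99 and 7.96 FPKM (-0.16), and ALDH1A1 was at 0.11. ABHD2, a lipid hydrolase, stood at 180.1 and 175.2 FPKM (-0.04), and its sign depended on the scaling. The median of the 3 was -0.15, and none was 1.2-fold lower, where 11.7% of all tested genes were.

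The other 8 genes act in the matrix, the cytoskeleton, chromosome structure and protein turnover, and had a median of -0.13. Of these 5 were below 0, where 55.2% of all tested genes were, and 63.9% of those averaging 10 FPKM or more. ADAMTS1, a secreted metalloprotease of the matrix, stood at 36.9 FPKM with DMSO and 26.0 FPKM with Indocin (-0.49), the third lowest ratio of the 36. The related proteases ADAMTS4, ADAMTS5 and ADAMTS9 were all listed below the minimum mean. NCAPD3, a subunit of condensin II, stood at 53.5 and 40.5 FPKM (-0.39). The 7 other condensin subunits were all below 0 under each scaling, where 55.2% of all tested genes were as deposited. The ratios of these 7 ran from -0.20 for SMC2 to -0.52 for NCAPH, with a median of -0.28. ACTN1, an actin crosslinker, was at 75.6 and 65.7 FPKM (-0.20), close to its paralog ACTN4 (-0.15). C1orf116, also called SARG for its androgen regulation, was at 75.2 and 67.3 FPKM (-0.16), and the ubiquitin ligase HERC3 at 26.2 and 24.4 FPKM (-0.10). The liprin PPFIBP2 (11.3 and 11.5 FPKM, 0.03), the membrane protein TMEM79 (14.3 and 14.4 FPKM, 0.01) and the centrosomal protein MPHOSPH9 (11.3 and 11.8 FPKM, 0.05) were level. These 3 stayed above 0 under each scaling.

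Genes of cell division were lower in the Indocin library too. All 12 of a proliferation list were below 0 under each scaling, with a median of -0.53 and a summed level of 946.5 FPKM with DMSO and 587.5 FPKM with Indocin. All 12 were at least 1.2-fold lower (11 under either rescaling), with CDK1 at 381.4 and 203.6 FPKM and CCNE2 at -0.93. Of all tested genes 55.2% were below 0 and 11.7% at least 1.2-fold lower. These shares were 41.2% and 7.0% with equal upper quartiles, and 39.6% and 6.69% with equal sums. NCAPD3 belongs to the chromosome machinery of dividing cells. The part of fewer dividing cells in its value or in those of the other androgen-induced genes was not tested, and in bulk RNA fewer cells of a kind and less RNA per cell cannot be told apart.

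**Figure D3:**
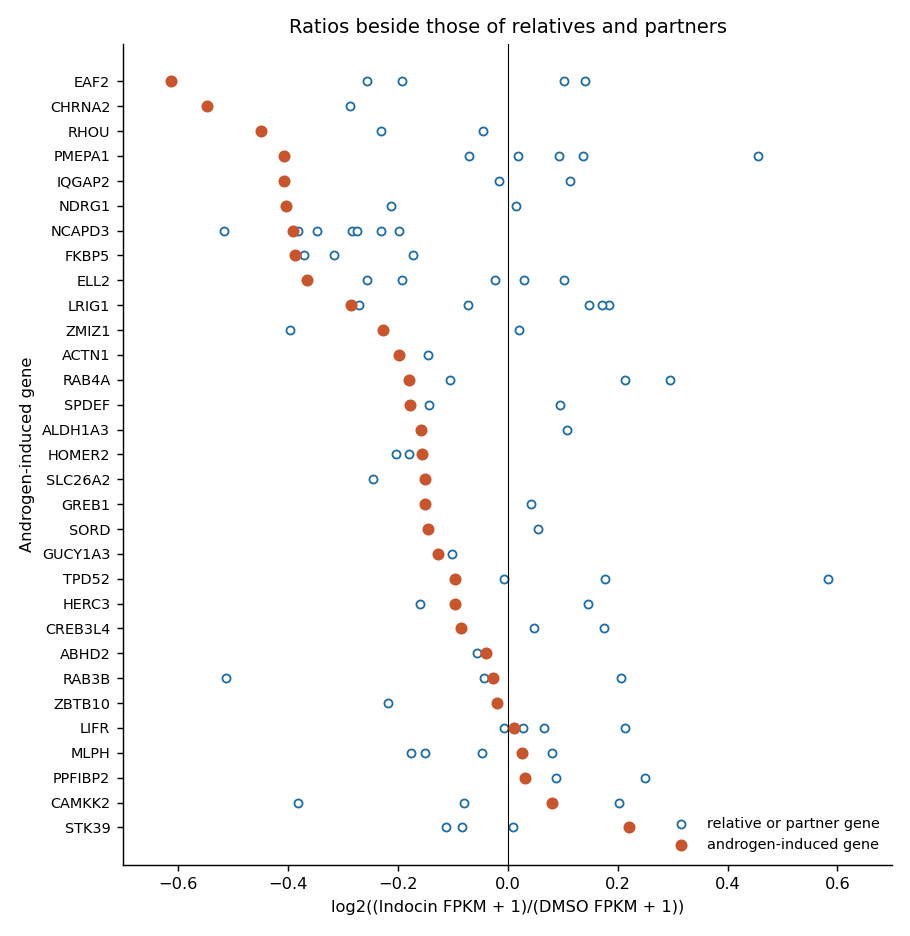
Log2 ratios (Indocin over DMSO, FPKM + 1) of each androgen-induced gene (filled) and its measured relatives and partners (open), ordered by the filled point. The partners of NCAPD3 and FKBP5 are all below 0, as are those of several other genes, HOMER2 and RHOU among them. EAF2, PMEPA1 and FKBP5 are among several genes that lie left of all their partners, and STK39 is among those that lie right of all of theirs.

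Over all 86 measured relatives and partners of the androgen-induced genes, 48 were below 0 and 38 above, with a median of -0.022. This was close to all tested genes, of which 55.2% were below 0, with a median of -0.025. An equal upper quartile gave 38 and 48, and an equal sum 37 and 49, where 41.2% and 39.6% of all tested genes were below 0. At 1.2-fold, 14 of the 86 were lower and 5 higher (11.7% and 9.9% of all tested genes were). Under either rescaling 8 were lower and 12 higher, where the share of all tested genes moved the same way, to 7.0% and 14.8% with equal upper quartiles.

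Other androgen-induced genes, the kallikreins among them, were spread to both sides. Of a list of 80, 76 were measured. In that list 41 were below 0 and 35 above, where 55.2% of all tested genes were below 0. The median was -0.034, which became 0.037 when the upper quartiles were made equal and 0.044 when the sums were. Over all tested genes the medians were close to these, at -0.025, 0.040 and 0.046. No gene of the list was 1.5-fold lower and 3 were as much higher, where 0.744% and 2.19% of tested genes were. The 3 were the desaturase SCD (1.41), the sterol regulator INSIG1 (1.34), and the glutamine transporter SLC1A5 (0.97). The lowest were SLC45A3 (-0.51), PAK1IP1 (-0.50) and KLK2 (-0.45), and 10 of the 76 were at least 1.2-fold lower and 11 as much higher, where 11.7% and 9.9% of all tested genes were. Without 9 genes of sterol and fatty acid synthesis, an alternative added after seeing the data, 39 of 67 were below 0, the median was -0.048, and 10 were 1.2-fold lower and 5 higher. That median too was above 0 under either rescaling (0.0064 and 0.014). The difference between the lists was not tested.

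Several androgen targets are also induced by glucocorticoids through a receptor that reads the same motif, FKBP5 among them. In a list of 10 other glucocorticoid-induced genes 4 were below 0 and 6 above, with a median of 0.026. Of all tested genes 55.2% were below 0, with a median of -0.025. With equal upper quartiles or sums 3 of the 10 were below 0 and 7 above. Their medians were then 0.096 and 0.10, against 0.040 and 0.046 over all tested genes. TSC22D3, also called GILZ, stood at 18.9 FPKM with DMSO and 62.2 FPKM with Indocin (1.67), and the ERBB inhibitor ERRFI1 at 0.48. PER1, a clock gene, stood at 24.0 and 18.5 FPKM (-0.36). FKBP5 was at -0.39, and the part of glucocorticoid signalling in its value was not tested.

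**Figure D4:**
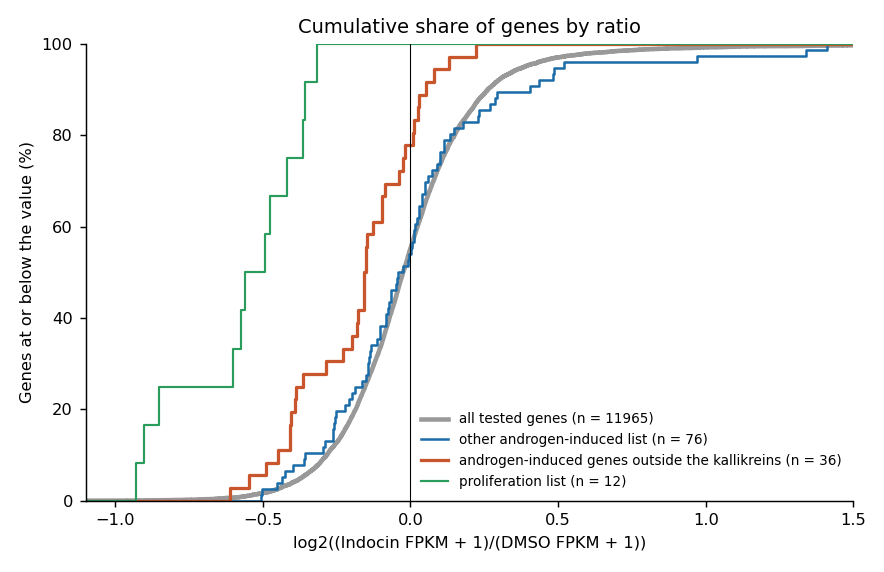
Cumulative share of genes (percent) by log2 ratio (Indocin over DMSO, FPKM + 1) for all tested genes, the 36 androgen-induced genes outside the kallikreins, the list of 76 other androgen-induced genes and the proliferation list of 12. The curve of the 36 genes runs left of that of all genes and ends at 0.22 (STK39), the curve of the 76 stays near all genes, and the proliferation curve reaches 100 below 0.

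The median of the group stayed below 0 under each scaling run, and its size depended on the scaling. The median of the 36 genes was -0.086 when the upper quartiles of the libraries were made equal and -0.078 when their sums were, while all tested genes had medians of 0.040 and 0.046. Under both of these rescalings 25 genes were below 0, 10 were at least 1.2-fold lower, 1 (STK39) was 1.2-fold higher and none was 1.5-fold lower. With equal upper quartiles 41.2% of all tested genes were below 0, 7.0% were 1.2-fold lower and 14.8% as much higher, and with equal sums these shares were 39.6%, 6.69% and 15.4%. ZBTB10, RAB3B and ABHD2 were then above 0. With a pseudocount of 0.1 FPKM, 2 genes were at least 1.5-fold lower, EAF2 and CHRNA2, and with 5 FPKM none was.

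**Figure D5:**
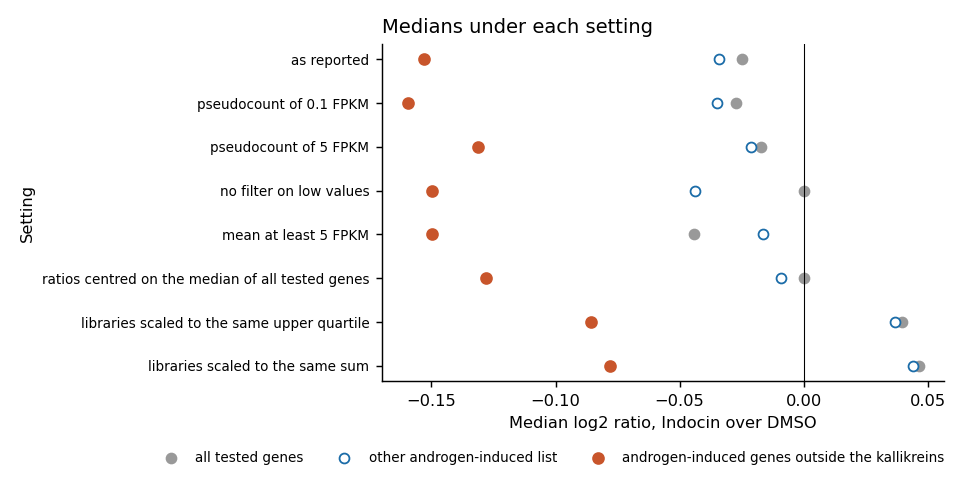
Median log2 ratio (Indocin over DMSO) under each setting for all tested genes, the other androgen-induced list and the androgen-induced genes outside the kallikreins. The medians of the last group run from -0.16 to -0.078 and lie left of those of all tested genes in every setting drawn.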

How the data were processed

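The data were 2 strand-specific mRNA libraries (KAPA kit), 1 per group. The deposited values were FPKM per gene symbol, per the file headers. Cuffnorm, StringTie, Cufflinks, TopHat and bcl2fastq and the builds hg19 and GRCh37 appear in the submitters' processing notes. Their order and versions, the gene annotation and the strand option were not given in the sources used here. FPKM are not counts, so no count test was run. Relative depth was read from 1332 genes with a mean under 0.05 FPKM: 28.1% had a library ratio within 0.5% of 1.017 times a ratio of whole numbers up to 6, against a median of 3.90% for other factors.

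Ratios were log2((Indocin FPKM + 1)/(DMSO FPKM + 1)) for genes averaging 1 FPKM or more, without 2044 short RNA symbols, computed in Python 3.11.15 with pandas 2.3.3 and numpy 2.4.6 and tested on simulated data. The members, roles, partners and gene lists came from general knowledge and were chosen with earlier results of these data known. All 39 members are named whatever their values, partners where they bear on a member, and of each list up to 3 highest and 3 lowest. Other genes named as examples of a list were chosen after their values were seen. Alternatives changed the pseudocount (0.1 or 5 FPKM), the minimum mean (none or 5 FPKM) or the scaling (ratios centred on the median, equal upper quartiles, equal sums). A 1.2-fold threshold, a minimum of 10 FPKM and a list without lipid synthesis were added after seeing the data. Of the 39 members 9 overlap another listed gene in GENCODE release 29 (CREB3L4, HERC3, IQGAP2, LIFR, LRIG1, MPHOSPH9, NCAPD3, RAB4A, SLC26A2). Their values may hold reads of that gene where strand was not used or, for RAB4A, where the strand is shared. The highest of these neighbours, JTB (151.3 and 157.9 FPKM) and SLC39A1 (104.8 and 88.7 FPKM), overlap CREB3L4. F2RL2, which overlaps IQGAP2, was listed at 0 in both libraries, and NAP1L5, which overlaps HERC3, at 0.0287 and 0 FPKM. From the list of BMP and TGF-beta targets 1 further gene, not among its 8, was left out and is not reported here.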

Additional observations from a re-analysis of the deposited data

How the results depend on the processing

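Each group had 1 library, so none could be left out, no result has an error, and the read depth that limits genes of low FPKM such as CHRNA2, KCNN2 and IQGAP2 is unknown. No paired analysis was possible because each group had 1 library and the results come from no test. Of the 36 androgen-induced genes 28 were below 0 (55.2% of all tested genes), 27 with ratios centred on the median (ZBTB10 changed sign), which puts as many tested genes below 0 as above, 25 with equal upper quartiles (41.2%) or sums (39.6%), 26 of 33 with a mean of at least 5 FPKM (59.9%) and 29 of 39 with no filter (39.1%). The share of 39.1% is lowered by genes listed at 0 in both libraries, whose ratio of 0 is not below 0. Of the 25268 symbols 6841 were listed so. With a pseudocount of 0.1 FPKM the medians were -0.16 for the group, -0.29 for signalling and -0.035 for the other androgen-induced list, 2 members were 1.5-fold lower, and 188 genes were 1.5-fold lower and 420 higher (89 and 262 as reported). With 5 FPKM the medians were -0.13 for the group, -0.17 for transcription, -0.092 for transport, -0.23 for signalling, -0.11 for metabolism, -0.12 for the remaining role and -0.021 for the other list, with 0 members 1.5-fold lower, and 36 genes lower and 126 higher. With no filter the medians were -0.164 for transcription, -0.156 for signalling and -0.044 for the other list, since genes listed near 0 enter. With a mean of at least 5 FPKM they were -0.22 for signalling and -0.016 for the other list, and 168 of fewer tested genes were 1.5-fold higher. Centred ratios gave -0.13 for the group, -0.15, -0.072, -0.26, -0.12 and -0.10 for transcription, transport, signalling, metabolism and the remaining role, and -0.0092 for the other list. The same upper quartile gave -0.086 for the group, -0.11, -0.025, -0.21, -0.073 and -0.056 in the same order, 0.037 for the other list, 0 members and 59 genes 1.5-fold lower. The same sum gave -0.078 for the group, -0.098, -0.017, -0.21, -0.065 and -0.048, 0.044 for the other list, 0 members and 52 genes lower. The other list thus changed sign under both scalings, which raise every ratio by construction.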

Other observations

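Targets of BMP and TGF-beta signalling, in which PMEPA1 and BMPR1B act, included several of the lower genes. Of a list of 8, 7 were measured, and 5 were below 0 and 2 above under each scaling, with a median of -0.43 as deposited. Of all tested genes 55.2% were below 0 as deposited. BAMBI, a decoy receptor of the pathway, stood at 102.5 FPKM with DMSO and 58.5 FPKM with Indocin (log2 ratio -0.80). The inhibitory SMAD6 stood at 17.4 and 10.9 FPKM (-0.63), ID3 at 111 and 79.4 FPKM (-0.48) and ID1 at 218.1 and 162.1 FPKM (-0.43). ID2 was on the other side at 18.2 and 19.9 FPKM (0.12). Of the receptors and mediators, BMPR1A (-0.01) and BMPR2 (-0.02) were level, with signs that depended on the scaling, and ACVR1 was at 0.26. The mediators SMAD1 (0.23) and SMAD5 (-0.14) lay on either side of 0. ATOH8 was listed below the minimum mean. At 1.2-fold 5 of the 7 were lower, also under either rescaling, where 11.7% of tested genes were as deposited. With 1 library per group these values have no replicate check.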
